A study of Mus musculus with 7 samples.

Results

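The 35 genes described here copy DNA or prepare a cell to do so. They were taken by symbol from a list of DNA replication and S phase genes, matched through the gene names of the authors' deposited table, and all 35 were found among the 38924 genes counted. Messenger RNA had been sequenced from the livers of mouse fetuses aged 12.5 days post coitum, with 4 wild-type libraries and 3 libraries labelled as PCBP2 knockout. The labels give the genotype as knockout without naming the allele, the strain, the sex or the litter, and they do not say that each library came from a separate animal. The p-values therefore measure the spread between these libraries, which may be technical. Pcbp2 itself had 4868 to 14682 reads in the wild-type libraries and 63 to 78 in the knockout libraries, which set the groups apart. The lowest wild-type count was that of replicate 1, against 12692 to 14682 in the other wild-type libraries. These counts do not show that all wild-type libraries had the same Pcbp2 genotype.

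A chromosome is copied once in each cell cycle. In G1, the origin recognition complex, CDC6 and CDT1 load the ring-shaped MCM2-7 helicase onto DNA, a step called licensing, and geminin blocks CDT1 afterwards so that no origin fires again. In S phase, CDC45 and the GINS complex turn the loaded ring into an active helicase, polymerases alpha, delta and epsilon copy the strands, and PCNA, a sliding clamp set in place by replication factor C, holds the polymerases on the template. Fetal liver at this age is the main blood-forming organ, and its erythroid progenitors divide rapidly, while red cell precursors leave the cycle as they mature. Many of these genes are known targets of E2F transcription factors, which switch on S phase genes at the end of G1.

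The sequences around their start sites are shown first, since they carry the words by which such targets are known. Windows from RefSeq on build GRCm38.p6, each reaching from 250 bases before a gene's annotated start to 50 bases after it, were held for 28 of the 35 genes. At least 1 of the E2F words TTTCCCGC, TTTCGCGC, TTTGCCGC and TTTGGCGC, searched on both strands and allowed to overlap each other, stood in the windows of 13 of the 28 genes, against 2.60% of 27025 genes with a window. The lines below show such sites from the licensing genes, from the catalytic subunit of polymerase alpha and from the clamp loader, with the E2F words in capitals and 6 flanking bases in lower case. The last line shows a CCAAT box, a word bound by NF-Y, from the window of Rrm2, whose window held none of the 4 E2F words. Each is written 5′ to 3′ on the strand of its gene.
Orc1, chr4:108579421-108579440, plus strand: ttagtgGCGCGAAAagtttt
Cdc6, chr11:98908007-98908026, plus strand: tggagaGCGGGAAAtcgcct
Cdt1, chr8:122568041-122568060, plus strand: taccttTTTGGCGCcatggc
Mcm3, chr1:20820280-20820299, minus strand: tccgtgGCGGGAAAacttgg
Mcm5, chr8:75109350-75109373, plus strand: aagaacTTTCGCGCCAAAacgtcc
Mcm6, chr1:128359798-128359821, minus strand: tatgctTTTGGCGCGAAAagtgcg
Mcm7, chr5:138172035-138172054, minus strand: cgaaccGCGGGAAAcagggt
Pola1, chrX:93632280-93632299, minus strand: cacaggGCGCCAAAtgcact
Rfc3, chr5:151651195-151651224, minus strand: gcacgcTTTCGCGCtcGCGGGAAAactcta
Rrm2, chr12:24708198-24708214, plus strand: cggcgtCCAATgggagg

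In Mcm5 and Mcm6 a word on each strand overlapped its neighbour, which gave a run of 12 capitals, and in Rfc3 a pair of words lay on either side of the annotated start. Mitosis genes carried other words. Of 22 mitosis genes with a window, 1 held an E2F word and 16 held TTTGAA, the core of the cell cycle homology region known from genes of G2 and mitosis. TTTGAA stood in 3 of the 28 replication genes and in 20.2% of all genes with a window. CCAAT stood in 16 of the 28 replication genes, in 18 of the 22 mitosis genes and in 41.1% of all genes, and it could overlap an E2F word, as at a second site of Mcm7. A match is a description of letters and does not show that a factor was bound.

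All 35 genes were well covered, with 903 to 33225 reads in each library, and all passed the filter on low counts. No gene of the list was called in the knockout livers in either direction at an edgeR adjusted p under 0.05. Over all 16226 genes tested, 5.02% were called, 1.59% higher (258 genes) and 3.43% lower (556 genes), and by total counts in place of TMM scaling the split was 651 higher and 393 lower. At an unadjusted edgeR p under 0.05, 10 of the 35 were lower and none higher, beside 11.8% lower and 9.98% higher of all genes. DESeq2 called 3 of the 35 lower (Rrm2, Tyms and Mcm5), beside 1057 of 15899 genes, and limma-voom 0, beside 519 of 16226. In the authors' deposited table, Rrm2 and Tyms had an adjusted p under 0.05, 2 of the 35 genes and both lower, against 6.86% of its 15548 genes called lower. The edgeR count became 3 (Rrm2, Tyms and Fen1) without wild type replicate 2, beside 753 lower of 15933 genes. Without knockout replicate 3 it became 1 (Rrm2), beside 482 of 16513. A replicate block, a term for replicate number, gave 6 (Orc1, Mcm5, Fen1, Rrm2, Tyms and Ccne1), beside 1204 of 16226. The labels do not tie equal numbers to a shared litter or batch.

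The differences were small and mostly on one side. Of the 35 genes, 31 had a log2 fold change (knockout over wild type) below 0, beside 47.9% of all genes. With total-count scaling 19 of the 35 were below 0, where the median of all genes was 0.14 in place of 0.01. In the authors' deposited table the same count was 31 of 35, beside 48.6% of its genes. The median was -0.16 over the 35 and 0.01 over all genes, while total-count scaling moved these medians to -0.032 and 0.14. Values ran from -0.62 (Rrm2) to 0.14 (Pole). The 95% interval of the fit, taken gene by gene, excluded a 2-fold fall for 34 of the 35 genes and a 1.5-fold fall for 28, and it excluded a 1.5-fold rise for all 35. The gene whose interval reached a 2-fold fall was Rrm2, from -1.03 to -0.21. The TMM-scaled level in CPM, a gene's reads set to a common library total, summed over the 35 genes to between 5346 and 6770 in wild type and between 5149 and 5857 in knockout, so the groups overlapped.

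**Figure D1:**
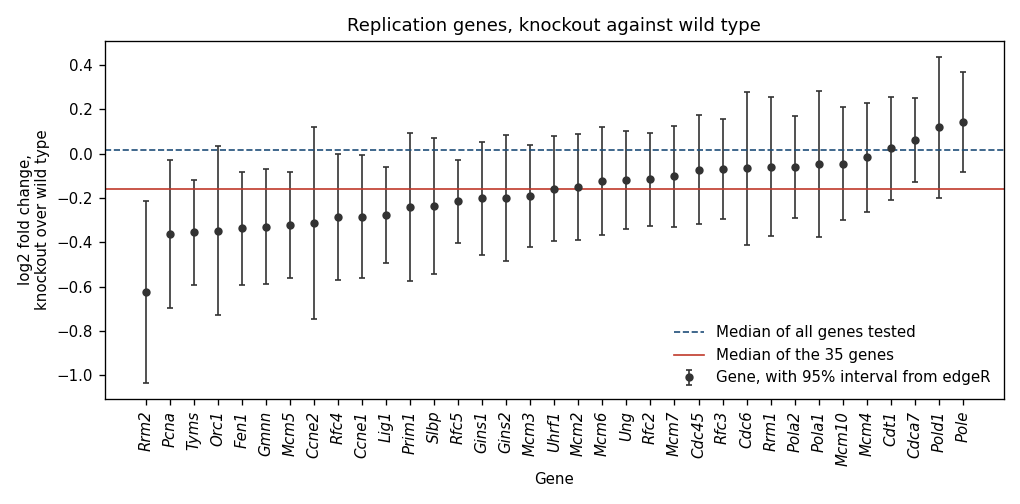
Log2 fold change, knockout over wild type, of each of the 35 replication genes with its 95% interval from edgeR, ordered by value; the dashed line is the median of all genes tested (0.01) and the solid line the median of the 35 (-0.16). Rrm2 lies lowest at -0.62, and 4 genes (Cdt1, Cdca7, Pold1 and Pole) lie above 0.

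The spread inside the wild-type group was as large as the distance between the groups. Against the wild-type mean on the log2 (CPM + 0.5) scale, the median gene of the list stood at 0.07, -0.19, 0.11 and 0.01 in wild type replicates 1 to 4 and at -0.09, -0.18 and -0.18 in knockout replicates 3 to 5. The level of wild type replicate 2 was thus that of knockout replicates 4 and 5. This library held the lowest value of all 7 libraries for 9 genes and the highest for 0. Wild type replicate 1 was highest for 13 genes and wild type replicate 3 for 11. Knockout replicate 4 was lowest for 12. Wild type replicate 2 was also the lowest wild-type library for the late erythroid markers (-0.51) and the hepatoblast markers (-0.59), on the same scale. The same library had the highest wild-type sums of adrenal, heart muscle, mesothelial, stellate and mesenchymal, and macrophage markers. Its adrenal markers summed to 32.3 CPM, against 2.65 to 6.84 in the other 6 libraries. Heart muscle markers summed to 186 in this library, against 437, 120.3 and 200 in knockout replicates 3 to 5. Mesothelial markers of wild type replicate 2 summed to 368, and its stellate and mesenchymal markers to 4578. Its macrophage markers summed to 341 CPM, against 305 to 337 in the other wild-type libraries. The part of cell composition in the result was not tested. In bulk tissue, fewer cycling cells and less RNA per cycling cell cannot be told apart.

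**Figure D2:**
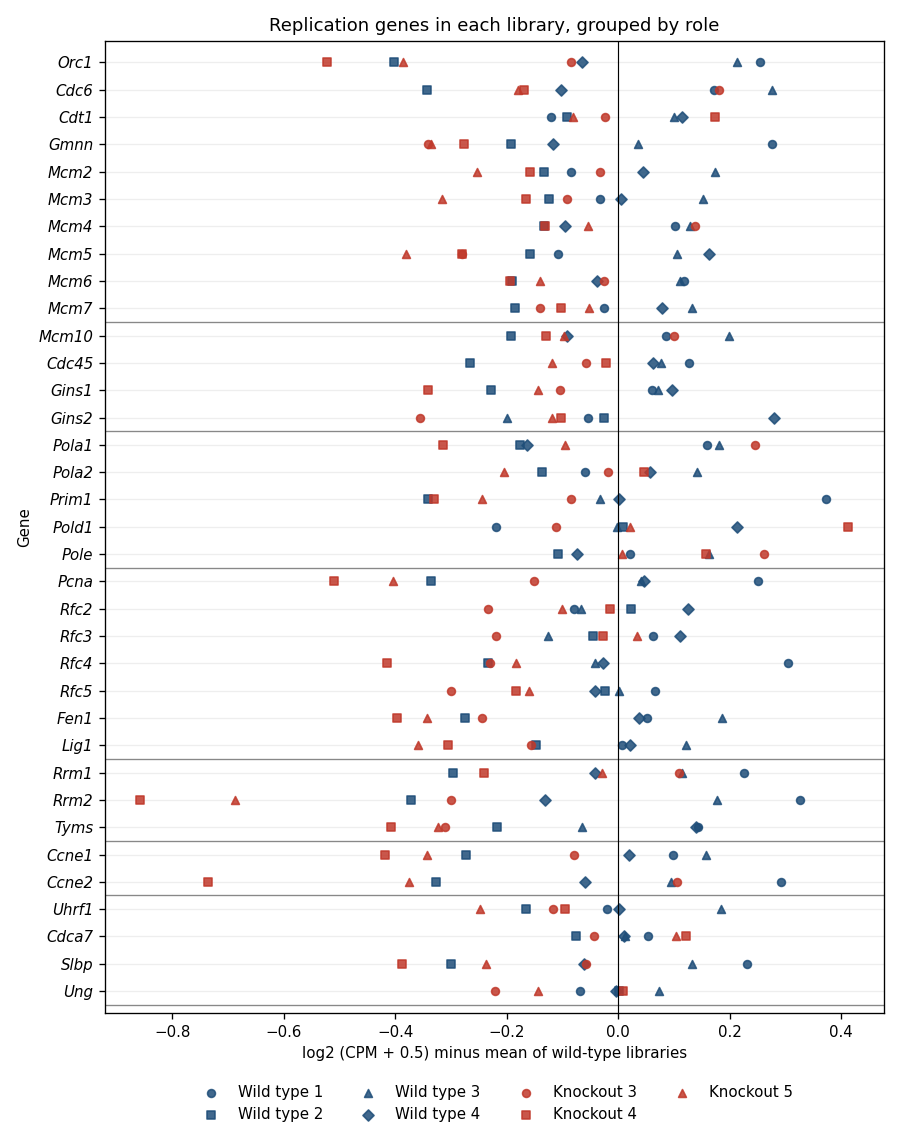
Each point is a gene's log2 (CPM + 0.5) in 1 library minus the mean of the 4 wild-type libraries; blue symbols are wild type, red symbols knockout, and lines part the roles described in the text. The blue squares of wild type replicate 2 lie among the red symbols for most genes, and Rrm2 spreads furthest to the left, to -0.86 in knockout replicate 4.

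Among the licensing genes, the 10 log2 differences ran from -0.35 (Orc1) to 0.02 (Cdt1). Mcm5 (ENSMUSG00000005410.5, chr8:75109569-75128439 in mm10), a subunit of the MCM2-7 ring, had the smallest p of the group. Its CPM were 268, 259, 311 and 324 in wild type and 238, 238 and 222 in knockout. Every knockout library lay below every wild-type library, as it did for 10.8% of all genes. The log2 difference was -0.32 ± 0.11 (SE; edgeR adjusted p = 0.117), and DESeq2 called it (DESeq2 adjusted p = 0.0456). Mcm6, the most abundant licensing gene by CPM, had 424, 342, 421 and 380.1 CPM in wild type and 384, 341 and 354 in knockout, with wild type replicate 2 among the knockout values (log2 -0.12 ± 0.11, edgeR adjusted p = 0.551; 0.0028 with total-count scaling).

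The remaining ring subunits overlapped between the groups. Mcm3 had 257, 241, 292 and 264 CPM in wild type and 246, 234 and 211 in knockout (log2 -0.19). Mcm2 had 259.6, 251, 311 and 284 CPM in wild type and 269, 247 and 231 in knockout (log2 -0.15). Mcm7 had 303, 272, 338 and 326 CPM in wild type and 280.03, 288 and 298 in knockout (log2 -0.10; 0.023 with total-count scaling). Its knockout libraries all lay inside the wild-type range. Mcm4 was the most level of the 6, at 316, 269, 322 and 276 CPM in wild type and 324, 269 and 284 in knockout (log2 -0.02; 0.11 with total-count scaling). Of these 4 the smallest edgeR adjusted p was 0.308, for Mcm3.

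The 6 ring subunits form 1 complex with 1 copy of each, and their transcripts were of similar level. On a per-length scale, CPM per kilobase of merged exon (RPKM), wild type had 39.7 ± 3.86 for Mcm2 (SD, n = 4), 70.0 ± 6.64 for Mcm7, 70.2 ± 5.70 for Mcm3, 72.8 ± 7.96 for Mcm5, 82.4 ± 7.62 for Mcm4 and 84.0 ± 8.31 for Mcm6. From Mcm7 to Mcm6 each neighbour in this order differed from the next by less than the sum of their SDs, and Mcm2 stood apart below them. The merged exons include every annotated transcript form (6956 bases for Mcm2), so a gene with long, rarely used exons gets a low value on this scale. Within the sum of the 6, Mcm5 took 17.4 ± 1.30% in wild type and 15.4 ± 0.629% in knockout, and Mcm4 took 19.7 ± 1.18% and 21.5 ± 1.19%. Both shares overlapped between the groups.

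**Figure D3:**
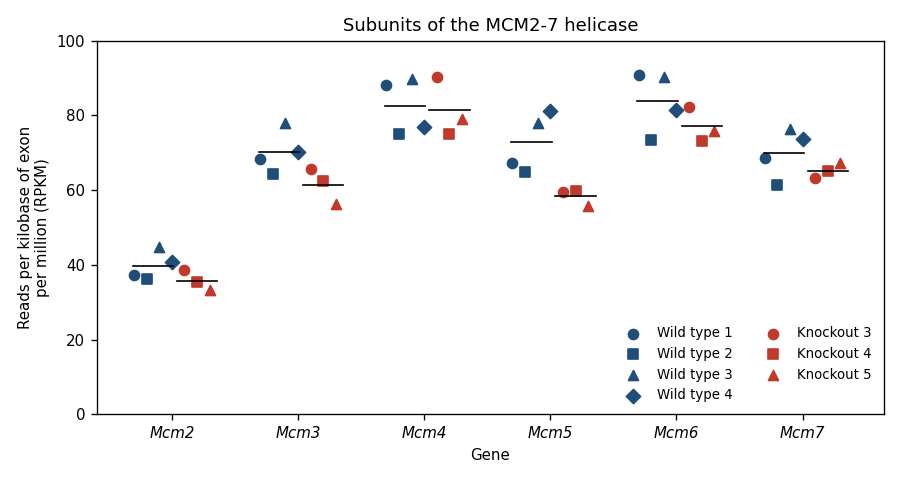
RPKM of the 6 subunits of the MCM2-7 helicase in each of the 4 wild-type (blue) and 3 knockout (red) libraries, with a bar at each group mean. Mcm5 is the subunit whose groups do not overlap, with 72.8 in wild type and 58.3 in knockout on average, and Mcm2 lies lowest in both groups.

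The loading factors and their inhibitor had log2 differences from -0.35 to 0.02, and their 95% intervals overlapped one another. Orc1, the ATPase subunit of the origin recognition complex that comes and goes with the cell cycle, had 43.3, 27.3, 42.1 and 34.6 CPM in wild type and 34.1, 25.04 and 27.6 in knockout (log2 -0.35 ± 0.17, edgeR adjusted p = 0.269), with wild type replicate 2 again low. Cdc6, which joins the origin recognition complex to load the ring, had 99.8, 69.7, 107 and 82.5 CPM in wild type and 100.4, 78.7 and 78.2 in knockout (log2 -0.07; 0.064 with total-count scaling). Cdt1, the partner of CDC6, had 60.4, 61.6, 70.4 and 71.2 CPM in wild type and 64.7, 74.2 and 62.1 in knockout, a log2 difference of 0.02 whose sign was not settled (-0.057 without knockout replicate 4). Gmnn, which encodes geminin, had 122, 88.4, 104 and 93.2 CPM in wild type and 79.7, 83.4 and 80.0 in knockout. The groups did not overlap (log2 -0.33 ± 0.12, edgeR adjusted p = 0.134).

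The 4 helicase activators had log2 differences from -0.20 to -0.05, with a median of -0.14, the same as that of the licensing genes. Mcm10, a scaffold that helps the helicase start and the most abundant of the 4 by CPM, had 77.0, 63.4, 83.4 and 68.0 CPM in wild type and 77.8, 66.2 and 67.8 in knockout (log2 -0.05 ± 0.11, edgeR adjusted p = 0.850; 0.080 with total-count scaling). Gins1, a GINS subunit, had 41.6, 33.9, 41.9 and 42.6 CPM in wild type and 37.0, 31.3 and 35.99 in knockout. Without wild type replicate 2 its groups would not overlap, and the log2 difference over all libraries was -0.20 ± 0.11 (edgeR adjusted p = 0.338). Gins2, another GINS subunit, stood at -0.20, and Cdc45, which completes the active helicase, at -0.07 (0.055 with total-count scaling). The merged gene span of Cdc45 overlaps Ufd1 on the opposite strand, with 96.3% as many reads as Cdc45, and that of Gins2 overlaps Gse1. Elsewhere in the list, Mcm7 overlaps Cops6 (41.6% as many reads) and Ccne2 overlaps Ints8 (58.8%), also on the opposite strand. No source used here gives the strand setting of the counting, so the values of these genes are less certain.

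The polymerase genes included both of the highest values of the list. Pole, the catalytic subunit of polymerase epsilon, had a log2 difference of 0.14 ± 0.10 (edgeR adjusted p = 0.453), and Pold1, the catalytic subunit of polymerase delta, one of 0.12 ± 0.14 (edgeR adjusted p = 0.681), which turned to -0.053 without knockout replicate 4. Prim1, the catalytic subunit of primase, was the most abundant of the 5 by CPM and had the smallest p. It had 157, 95.7, 119 and 122 CPM in wild type and 114, 96.4 and 102 in knockout (log2 -0.24 ± 0.15, edgeR adjusted p = 0.388; -0.10 without wild type replicate 1). The lowest of all 7 libraries for this gene was wild type replicate 2. Pola1 and Pola2, the catalytic and the B subunit of polymerase alpha, which works with primase, stood at -0.05 and -0.06, and at 0.079 and 0.066 with total-count scaling.

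The clamp, its loader and the enzymes that join Okazaki fragments held 5 of the 10 genes with an unadjusted p under 0.05. All 7 log2 differences of this group were below 0, with a median of -0.28, but total-count scaling brought Rfc2 and Rfc3 to 0.0055 and 0.053. Pcna, the sliding clamp and the most abundant gene of the whole list per length, had 880.4, 586, 762 and 764 CPM in wild type and 666, 519.8 and 559.6 in knockout. Its value in wild type replicate 2 lay between those of the knockout libraries (log2 -0.36 ± 0.15, edgeR adjusted p = 0.192). Fen1, the nuclease that trims the flap ahead of each Okazaki fragment, had 129, 102, 141 and 127 CPM in wild type and 105, 94.1 and 97.7 in knockout (log2 -0.34 ± 0.11, edgeR adjusted p = 0.118; leaving out wild type replicate 2 gave 0.0245). Its span overlaps Tmem258 on the opposite strand, which had 80.9% as many reads.

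Lig1, the ligase that seals the fragments, had 194, 174, 210.01 and 196 CPM in wild type and 173, 156 and 150.4 in knockout, without overlap (log2 -0.28 ± 0.10, edgeR adjusted p = 0.135). Rfc5, a small subunit of the clamp loader, had 79.4, 74.6, 75.9 and 73.7 CPM in wild type and 61.5, 66.7 and 67.8 in knockout, also without overlap (log2 -0.22 ± 0.08, edgeR adjusted p = 0.170). With Mcm5, Gmnn and Tyms these made 5 of 35 genes whose knockout libraries all lay below wild type, a share close to the 10.8% of all genes. None of the 35 lay entirely above wild type, beside 9.83% of all genes. The other loader subunits stood at -0.12 (Rfc2), -0.07 (Rfc3) and -0.29 (Rfc4). Rfc4 overlaps Eif4a2, which had 314% as many reads, on the opposite strand, and Rfc5 overlaps Wsb2, which had 58.2% as many.

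The genes of nucleotide supply held the largest difference of the list. Ribonucleotide reductase makes the deoxynucleotides that polymerases use, and it is built from a large subunit encoded by Rrm1 and a small subunit encoded by Rrm2, which is made and destroyed with the cell cycle. Rrm2 (ENSMUSG00000020649.5, chr12:24708241-24714146) had 519, 319.8, 468 and 377 CPM in wild type and 336, 228 and 257 in knockout. Wild type replicate 2 lay below knockout replicate 3, so the groups overlapped. The means were 421 ± 89.3 CPM (SD, n = 4) and 274 ± 55.8 CPM (SD, n = 3), and the log2 difference was -0.62 ± 0.18 (edgeR adjusted p = 0.0826). Leaving out wild type replicate 2 gave an edgeR adjusted p of 0.0307, leaving out knockout replicate 3 gave 0.0454, and keeping genes of low count gave 0.0358. DESeq2 gave an adjusted p of 0.0127, and over all 15 alternatives the adjusted p ran from 0.000717 to 0.266. The lowest came from edgeR with the replicate block, and that of DESeq2 was the next lowest. In the authors' deposited table the log2 fold change of Rrm2 was -0.61 ± 0.18 (standard error) with an adjusted p of 0.0130.

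Rrm1 differed less between the groups, though its 95% interval (-0.37 to 0.25) overlapped that of Rrm2 (-1.03 to -0.21). It had 582, 405, 539 and 484 CPM in wild type and 537, 421 and 488 in knockout, with the knockout libraries inside the wild-type range (log2 -0.06 ± 0.14, edgeR adjusted p = 0.843; 0.069 with total-count scaling). Tyms, thymidylate synthase, which makes the thymidine nucleotide, had 191, 149, 166 and 191 CPM in wild type and 139.6, 130.5 and 138 in knockout. The groups did not overlap (log2 -0.36 ± 0.11, edgeR adjusted p = 0.0862). Leaving out wild type replicate 2 gave an edgeR adjusted p of 0.0272, and DESeq2 gave 0.0332. The authors' deposited table gave Tyms a log2 fold change of -0.36 with an adjusted p of 0.0374.

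Both E cyclins, which drive CDK2 at the start of S phase, overlapped between the groups. Ccne2, the more abundant, had 211, 138, 185 and 166 CPM in wild type and 186, 104 and 133 in knockout (log2 -0.31 ± 0.20, edgeR adjusted p = 0.388). The difference was -0.56 without knockout replicate 3, and leaving out knockout replicate 4 gave -0.13. This was the least precise difference of the list, and knockout replicates 3 and 4 lay further apart than the group means. Ccne1 had 119.6, 92.3, 125 and 113 CPM in wild type and 106, 83.4 and 87.9 in knockout (log2 -0.28 ± 0.13, edgeR adjusted p = 0.222).

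The last 4 genes act on chromatin, histone transcripts and uracil in DNA. Uhrf1, which brings the maintenance methyltransferase to newly copied DNA, had 272, 246, 313 and 276 CPM in wild type and 254, 258 and 232 in knockout (log2 -0.16 ± 0.11, edgeR adjusted p = 0.423). Slbp, which binds the stem loop of replication-dependent histone transcripts, had 262, 181, 244 and 214 CPM in wild type and 214, 170.2 and 189 in knockout (log2 -0.24 ± 0.14, edgeR adjusted p = 0.353). In both, wild type replicate 2 lay inside the knockout range. Ung, the glycosylase that removes uracil, stood at -0.12, or 0.0052 with total-count scaling. Cdca7, which works with the remodeller HELLS, had 111 to 121 CPM in wild type and 113 to 127 in knockout (log2 0.06 ± 0.08, edgeR adjusted p = 0.718).

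Partner genes were also set against each other within each library, which takes library scaling out of the comparison. The 8 ratios were chosen after the values had been seen and were not tested. Rrm2 over Rrm1, per length, was 3.54, 3.14, 3.45 and 3.10 in wild type and 2.48, 2.15 and 2.09 in knockout. The size of this ratio depends on merged exon length (2771 bases for Rrm2 and 11012 for Rrm1), which is the same in every library. By mean CPM in wild type, Rrm1 was the more abundant (503 against 421). Wild type replicate 2, low for both genes, kept a wild-type ratio, and the groups did not overlap. Gmnn over Cdt1 was 4.35, 3.08, 3.15 and 2.81 in wild type and 2.64, 2.41 and 2.76 in knockout, apart by a narrow margin and with wild type replicate 1 well above the rest. Cdc6 over Orc1 was 1.53, 1.70, 1.70 and 1.59 in wild type and 1.96, 2.09 and 1.89 in knockout, higher in every knockout library. Ccne2 over Ccne1, Pola2 over Pola1, Gins2 over Gins1, Fen1 over Lig1 and Mcm5 over Mcm4 overlapped between the groups.

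**Figure D4:**
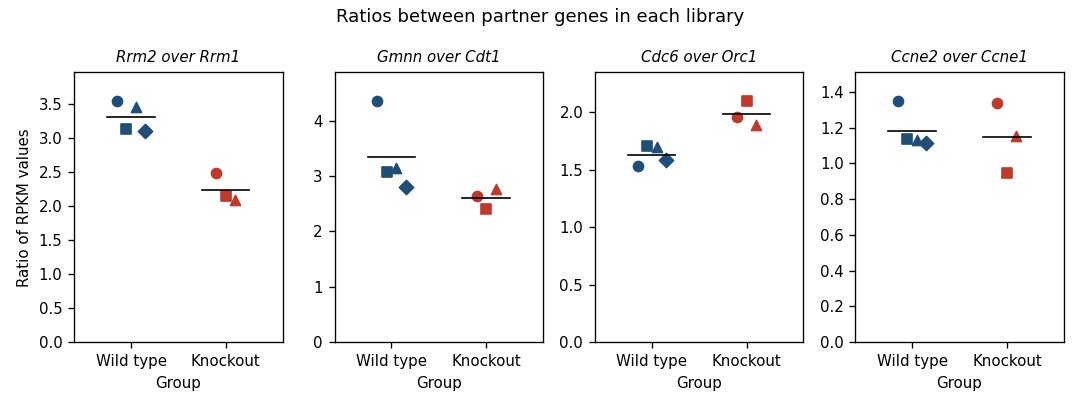
Ratio of the RPKM values of partner genes in each library (circle, square, triangle and diamond for wild type replicates 1 to 4 in blue; circle, square and triangle for knockout replicates 3 to 5 in red), with a bar at each group mean. Rrm2 over Rrm1 averages 3.31 in wild type and 2.24 in knockout, Gmnn over Cdt1 3.35 and 2.61, Cdc6 over Orc1 1.63 and 1.98, and Ccne2 over Ccne1 1.18 and 1.15.

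A further 58 genes of replication that are not in the list were read from the same fit. They include the other origin recognition and polymerase subunits, replication protein A, the CDC7 kinase, chromatin assembly factors and enzymes of nucleotide supply. Of these, 2 fell and 0 rose, a share lower close to the 3.43% of all genes. The median log2 difference was -0.07, or 0.061 under total-count scaling. Leaving out wild type replicate 2 gave a median of -0.14, and leaving out replicate 1 of the same group gave -0.036. Asf1b, a histone chaperone of dividing cells, fell from 82.4, 63.0, 84.8 and 78.7 CPM in wild type to 52.8, 41.5 and 39.8 in knockout (log2 -0.79 ± 0.14, edgeR adjusted p = 0.0132; leaving out knockout replicate 5 gave 0.0790). Every knockout library lay below every wild-type library. Rnaseh2c, a subunit of the nuclease that removes RNA from DNA, fell from 40.3, 46.8, 52.2 and 61.1 CPM to 23.9, 36.7 and 30.6 (log2 -0.72 ± 0.17, edgeR adjusted p = 0.0419). Its adjusted p passed 0.05 with total-count scaling (0.0783) and when any of 4 libraries was left out. In wild type these were replicates 3 (0.0974) and 4 (0.0985), and in knockout they were replicates 3 (0.0891) and 5 (0.151).

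Of 25 mitosis genes, which act after S phase, 2 fell and 0 rose, beside 3.43% and 1.59% of all genes. The median was -0.15, or -0.018 under total-count scaling. Leaving out knockout replicate 3 gave a median of -0.26, leaving out knockout replicate 4 gave -0.089, and leaving out wild type replicate 2 gave -0.23. Ube2c, the ubiquitin-conjugating enzyme of the anaphase-promoting complex, fell from 227, 163, 205 and 189 CPM to 136, 115 and 117 (log2 -0.67 ± 0.12, edgeR adjusted p = 0.0153; leaving out knockout replicate 4 gave 0.0600 and knockout replicate 5 gave 0.0971). Birc5, survivin of the chromosomal passenger complex, fell from 195, 153, 177 and 167 CPM to 135, 126 and 132 (log2 -0.40 ± 0.10, edgeR adjusted p = 0.0475). Its call was lost without any library other than wild type replicate 2, with adjusted p up to 0.179, and also with limma-voom (0.0546) and total-count scaling (0.0676). Nusap1, a spindle protein, stood at -0.46 ± 0.17 (edgeR adjusted p = 0.142) and overlapped between the groups.

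Markers of the cells in these samples were read from the same fit. Their medians ran from well below that of the replication genes (late erythroid markers) to above it (endothelial and heart muscle markers). The medians of the hepatoblast markers and of the stellate and mesenchymal markers lay near it. Of 11 late erythroid markers tested, 7 fell and 0 rose, with a median of -1.44 and a summed level of 3888 to 7527 CPM in wild type and 1775 to 2883 in knockout. Of 10 early erythroid markers 3 fell (median -0.65), with 1219.5 to 2441 CPM in wild type and 936 to 1494 in knockout. Megakaryocyte markers fell in 5 of 8 (median -0.74; 302 to 417 CPM and 177 to 189), macrophage markers in 5 of 9 (-0.62; 305 to 341 and 225 to 291), granulocyte markers in 1 of 8 (-0.78; 244 to 383 and 142 to 331) and hepatoblast markers in 1 of 12 (-0.24; 5694 to 12849 and 7502 to 9838). Endothelial markers rose in 3 of 9 (0.41; 235 to 311 and 311 to 402). Stellate and mesenchymal markers held 1 that rose and 1 that fell of 10 (-0.23; 3094 to 4578 and 2896 to 3420.4). Mesothelial markers fell in 1 of 5 (-0.41; 265 to 368 and 226 to 311), and heart muscle markers rose in 2 of 8 (1.24; 109 to 186 and 120.3 to 437). Of 6 adrenal markers none was called by edgeR, or at an unadjusted p under 0.05, and the summed level was 2.65 to 32.3 CPM in wild type and 3.57 to 6.84 in knockout. Their part in the values of the replication genes was not tested.

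**Figure D5:**
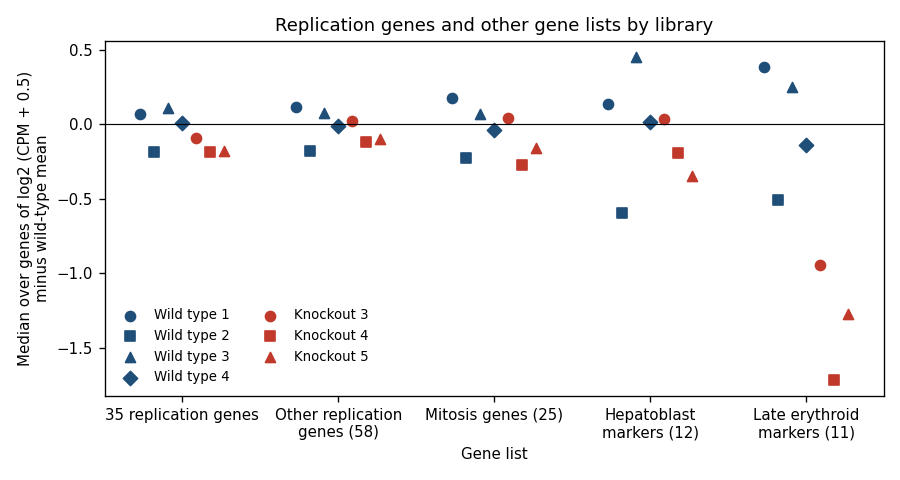
Median over the genes of each list of log2 (CPM + 0.5) minus the wild-type mean, for each of the 4 wild-type (blue) and 3 knockout (red) libraries. The replication genes stay between -0.19 and 0.11 in all 7 libraries, while the late erythroid markers lie at -0.94, -1.72 and -1.28 in knockout replicates 3 to 5.

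Across the list the levels in wild type spanned 53.1-fold per length. They ran from 5.87 ± 0.239 RPKM for Ung, 7.11 ± 0.612 for Pole and 8.43 ± 0.727 for Pola2 up to 84.0 ± 8.31 for Mcm6, 152 ± 32.2 for Rrm2 and 312 ± 50.5 for Pcna. Pcna and Rrm2 differed from their neighbours by more than their SD, whereas Rfc4 (83.7 ± 13.5), Mcm4 and Mcm6 did not differ from one another. Knockout kept Pcna and Rrm2 on top, at 242 ± 31.6 and 98.7 ± 20.1 RPKM (SD, n = 3). Merged exons came to 5468 bases for Ung, 11160 for Pole and 8294 for Pola2, but to 2400 for Pcna and 2771 for Rrm2. The span and the order of these levels therefore depend in part on annotated length. The genes lie on 15 chromosomes, with 8 of them on chromosome 5.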

How the data were processed

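The labels' protocols give Trizol extraction of total RNA and TruSeq stranded mRNA libraries, and the submitters' processing notes name cutadapt 1.4.2, TopHat2, HTSeq, DESeq2, DESeq and build mm10. No source used here states their settings or the annotation release. Each deposited count file lists the authors' whole-read count of every gene, followed by 5 HTSeq summary lines (19.3% to 26.0% of all reads), which were left out. The authors' table gives a baseline signal (mean normalized count), a log2 fold change with its standard error, a Wald score, and a p-value unadjusted and adjusted. Its names matched 15548 gene IDs, and GENCODE M21, matched without ID version, named 22194 more. Coordinates and merged exon lengths are from M21.

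Libraries held 31898339 to 44544889 reads assigned to genes. In R 4.3.3, edgeR 4.0.16 kept 16226 genes (filterByExpr), scaled by TMM and fitted its quasi-likelihood test to all 7 libraries, with genotype as the term. A call needed an adjusted p (Benjamini-Hochberg, over every gene tested) under 0.05. Standard errors and intervals are from that fit. The fit was tested on simulated counts. Alternatives were RLE scaling, scaling by total counts, leaving out globin genes, no filter, at least 5 CPM in at least 3 libraries, limma-voom (limma 3.58.1), DESeq2 1.42.0, a replicate block and each library left out.

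The genes, the other lists and the rule for named genes were chosen with earlier results of these data known. The rule named called genes, the most abundant gene and the gene with the smallest p in each role, Mcm2 to Mcm7, up to 12 called other replication genes and 3 mitosis genes. Genes given outside it, and the partner ratios, were chosen after their values were seen.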

Additional observations from a re-analysis of the deposited data

Results flagged for a closer look

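In 41 genes the 4 wild-type libraries were examined for a single library far from the others, which chance alone flags in about 1 of 20 groups, and 2 were found. Gins1, the GINS subunit, had 33.9 CPM in wild type replicate 2, against 41.6 to 42.6 CPM in the other wild-type libraries. Pcbp2 had 165 CPM in wild type replicate 1, against 329 to 347 CPM in the other wild-type libraries. Without wild type replicate 1 none of the 35 replication genes was called by edgeR, and their median log2 difference was -0.16.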

How the results depend on the processing

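Rising genes over the whole table numbered 651 with total-count scaling, 617 with DESeq2 and 852 with the replicate block, and 24 to 418 with 1 library left out. Falling genes numbered 1057 with DESeq2, 1204 with the replicate block and 116 to 753 with 1 library left out. Among the 35 replication genes, the number lower was 1 with no filter on low counts, 3 with DESeq2, 6 with the replicate block and 0 to 3 with 1 library left out, and none was higher under any alternative. Their median was -0.032 with total-count scaling and -0.22 to -0.13 with 1 library left out. The median of all genes tested was 0.01 with TMM scaling and 0.14 with total-count scaling. Of the 58 other replication genes, 1 was higher with total-count scaling and 1 with the replicate block. The number lower was 1 with total-count scaling, 9 with the replicate block and 0 to 3 with 1 library left out, and the median was 0.061 with total-count scaling and -0.14 to -0.036 with 1 library left out. Of the mitosis genes, 1 was lower with total-count scaling and 1 by limma-voom. The number was 4 with the replicate block and 0 to 2 with 1 library left out, and their median then ran from -0.26 to -0.089. With total-count scaling the log2 difference changed sign for Cdc6 (0.064), Mcm4 (0.11), Mcm6 (0.0028), Mcm7 (0.023), Mcm10 (0.080), Cdc45 (0.055), Pola1 (0.079), Pola2 (0.066), Rfc2 (0.0055), Rfc3 (0.053), Rrm1 (0.069) and Ung (0.0052). With 1 library left out the sign was unsettled for Cdc6 (-0.19 to 0.030), Cdt1 (-0.057 to 0.077), Mcm4 (-0.10 to 0.041), Mcm10 (-0.12 to 0.022), Pola1 (-0.21 to 0.075), Pola2 (-0.11 to 0.011), Pold1 (-0.053 to 0.22), Rfc3 (-0.12 to 4.96e-05) and Rrm1 (-0.16 to 0.029). TMM scaling factors were 0.917 to 1.02 in wild type and 1.04 to 1.07 in knockout. Total-count scaling leaves them out, and it raised the median of all genes and that of the 35 alike. The cause of the differences between the other alternatives was not tested. The replicate block rests on numbers 3 and 4, which both groups share, and nothing in the labels ties equal numbers to a shared litter or batch. Deviations correlated at 0.37 for the libraries numbered 3 and 0.34 for those numbered 4. The other pairings of a wild-type with a knockout library ran from -0.38 to 0.17. With the block Cdt1 stood at -0.031, and Orc1, Mcm5, Fen1, Rrm2, Tyms and Ccne1 were lower.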

Other observations

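The 13 replication genes with an E2F word in their start-site window had a median log2 difference, knockout over wild type, of -0.10, with values from -0.35 (Orc1) to 0.12 (Pold1). The 15 genes whose windows held none of the 4 words had a median of -0.24, from -0.62 (Rrm2) to -0.05 (Mcm10). The ranges overlapped, the split was made after the values had been seen, and no test was made of it. Genes with and without CCAAT had medians of -0.15 (16 genes) and -0.17 (12 genes).

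The spread of each gene between the libraries of a group was close to that of other genes. The median coefficient of variation of CPM over the 35 genes was 11.8% in wild type and 8.75% in knockout, beside 10.0% and 8.91% over the 6027 genes with a mean CPM in the same range.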
